A study of Mus musculus with 2 samples.

Results

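The clustered protocadherin genes lie side by side on mouse chromosome 18 in 3 groups, alpha, beta and gamma. They were taken as the RefSeq genes of that chromosome (GRCm38.p6, the build mm10) whose symbol starts with Pcdha, Pcdhb or Pcdhg, which gave 58 of 49943 genes on the placed chromosomes. There were 14 alpha, 22 beta and 22 gamma genes, all annotated as protein coding except the transcribed pseudogene Pcdhgb8. H3K9me3, trimethylation of lysine 9 of histone H3 and a mark of silent chromatin, was mapped by ChIP-seq in E14TG2a.4, a male mouse embryonic stem cell line of strain 129/Ola derived at embryonic day 3.5. Both replicates, each from its own biosample, form a single group of 2 with no second condition. No treatment is given in the labels, and a control library was not analysed here. The data are peak lists, so the read depth is unknown and no counting interval can be given.

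Clustered protocadherins are cadherin-like proteins of the cell surface that neurons use to tell their own processes from those of other neurons. In the alpha and gamma clusters each gene has its own large variable exon with its own promoter, which encodes the part of the protein outside the cell and is spliced to constant exons shared by the cluster. Beta genes consist of a single exon and have no constant part. Neurons are known to choose among most variable exons at random, while the C-type genes at the end of the alpha and gamma clusters (Pcdhac1, Pcdhac2, Pcdhgc3, Pcdhgc4 and Pcdhgc5) are used more evenly.

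The layout of the annotation fixed which end of each gene is variable. Alpha genes started over a range of 213 kb and ended within 1.24 kb of each other, and gamma genes started over 158 kb and ended within 1.38 kb. The variable exon was therefore taken as the first 2.5 kb from the low coordinate of each alpha and gamma gene. For beta the whole gene was used, with a median of 3.42 kb and a range from 2.34 to 5.27 kb. In the older build mm9, where exons are annotated, the first exons of alpha transcripts were 2382 to 2562 bp long, so the window of 2.5 kb is close to one alpha exon. Those of gamma were 2565 to 5534 bp long, with a median of 2608 bp, so the window is shorter than each annotated gamma exon. The locus, from the start of Pcdha1 to the last gamma end, runs from 36930285 to 37841873 in mm10. It was covered over 6.95% by the authors' replicated peak list, with 5.33% in replicate 1 and 7.16% in replicate 2. Chromosome 18 as a whole was covered over 3.91%, with 2.80% in replicate 1 and 4.31% in replicate 2, and the genome over 3.50%, with 2.62% and 3.78%. Of the 3 clusters, alpha was the one well above the genome, and the sequence between the clusters, described further on, was also above it. From the first to the last variable exon, alpha was covered over 13.2%, with 9.85% in replicate 1 and 12.8% in replicate 2. Beta had 3.45%, with 2.87% and 3.91%, and gamma 3.49%, with 3.08% and 4.54%, both close to the genome.

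**Figure D1:**
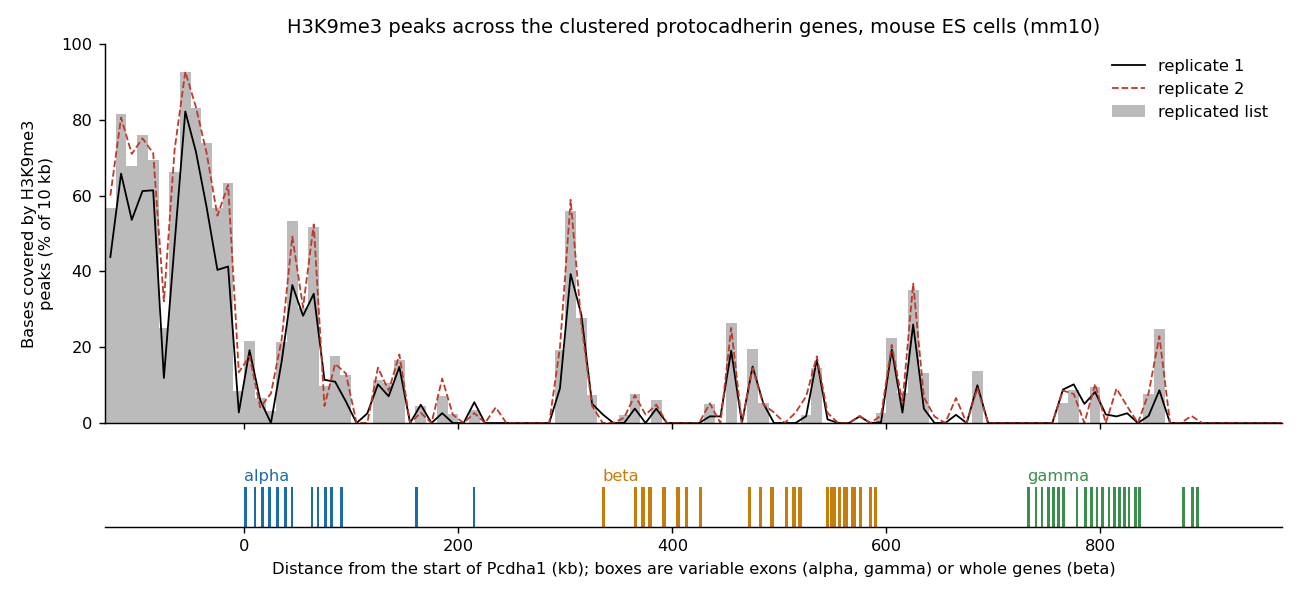
Share of each 10 kb bin covered by H3K9me3 peaks (y axis, percent) against distance from the start of Pcdha1 (x axis, kb), with grey bars for the replicated list and lines for the 2 replicates. Boxes mark variable exons of alpha and gamma and whole beta genes. In the replicated list coverage is highest in the 100 kb before Pcdha1 (61.4%), but falls to 8.36% in the last 10 kb of it. It stays low over most of the first alpha exons and rises to 53.2% in the bin from 40 to 50 kb. Further on it returns in patches between the beta genes and between clusters.

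H3K9me3 peaks lay on most alpha variable exons and on few beta and gamma ones. In the replicated list 11 of 14 alpha exons had a peak, against 0 of 22 beta genes and 1 of 22 gamma exons. Among 14986 protein-coding genes on other chromosomes, 5.28% had a replicated peak in the first 2.5 kb, so the alpha share of 78.6% stood far above that background and the gamma share of 4.55% near it. Of 2372 protein-coding genes as long as beta genes, 7.50% had a replicated peak in the body, against 0% of beta genes. Alpha exons kept the highest count in each replicate alone, with 10 of 14 in replicate 1 and 12 of 14 in replicate 2. With 1 group of 2 replicates no test of these counts was made, and neighbouring exons of 1 locus are not independent.

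Gamma exons differed most between the lists. In replicate 1 alone 6 of 22 gamma exons had a peak, or 27.3%, and in replicate 2 alone 7 of 22, or 31.8%, where 6.39% and 8.01% of the genes on other chromosomes had one. On 4 gamma exons (Pcdhga5, Pcdhgb4, Pcdhgb6 and Pcdhgb7) both replicates had a peak, but their peaks overlapped on Pcdhgb4 alone. Neither replicate had a peak on 13 gamma exons. Beta genes had 1 of 22 in replicate 1 and 4 of 22 in replicate 2, or 4.55% and 18.2%, against backgrounds of 9.99% and 12.5%, and no beta gene had a peak in both. The near absence of gamma peaks therefore holds for the replicated list, and a statement on gamma exons depends on the list used.

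**Figure D2:**
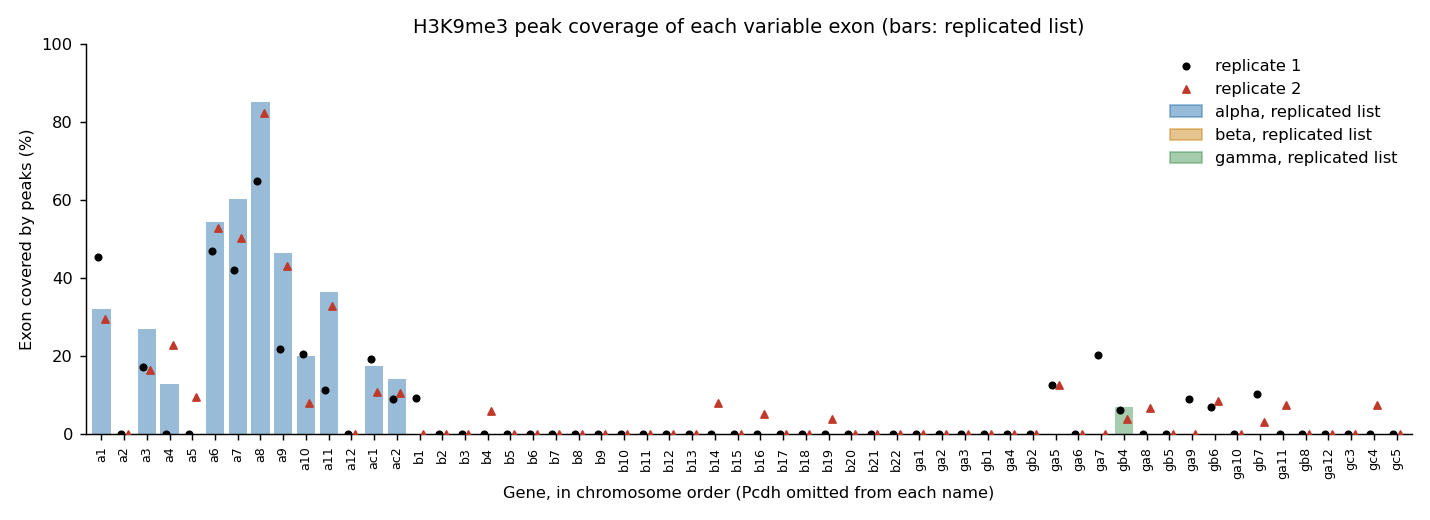
Percent of each variable exon covered by H3K9me3 peaks (y axis) for the 58 genes in chromosome order (x axis, "Pcdh" left out of the names). Bars are the replicated list, coloured by cluster, dots are replicate 1 and triangles replicate 2. Alpha exons reach 85.0%, beta bars are at 0 and the single gamma bar, Pcdhgb4, is at 7.04%.

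The alpha exons varied widely among themselves, with the highest coverage in the middle of the array. Pcdha8 had 85.0% of its exon under replicated peaks, with 64.8% in replicate 1 and 82.4% in replicate 2. Pcdha7 had 60.2%, with 42.0% and 50.2%, and Pcdha6 had 54.4%, with 46.9% and 52.9%. These 3 genes are neighbours and encode alternative alpha ectodomains. Next came Pcdha9 at 46.3%, with 21.9% in replicate 1 and 43.2% in replicate 2, and Pcdha11 at 36.4%, with 11.3% and 32.9%. At these 2 exons the replicates lay further apart than at Pcdha6, Pcdha7 and Pcdha8. Pcdha1, the first gene of the array, had 32.0%, with more in replicate 1, at 45.5%, than in replicate 2, at 29.6%.

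Pcdha2, Pcdha5 and Pcdha12 had no replicated peak on the exon. Pcdha2 and Pcdha12 had none in either replicate, with the nearest replicated peak 3.12 kb and 2.21 kb away, and Pcdha5 had 9.36% covered in replicate 2. The remaining exons with a replicated peak lay low, from 12.7% at Pcdha4, which had no peak in replicate 1, to 26.8% at Pcdha3. Exons without a replicated peak thus lay among marked ones. Without Pcdha6, Pcdha7 and Pcdha8, 8 of the other 11 alpha exons had a replicated peak, with 18.7% of their bases covered, 13.2% in replicate 1 and 16.7% in replicate 2.

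The 2 C-type exons of the alpha cluster carried weak peaks, and the 3 of the gamma cluster had no replicated peak. Pcdhac1 was covered over 17.5%, with 19.3% in replicate 1 and 10.8% in replicate 2. Pcdhac2 was covered over 14.2%, with 9.04% and 10.6%. Both had a peak in each replicate, at a fold enrichment of 2.76 ± 0.873 for Pcdhac1 (SD, n = 2). The strongest Pcdhac2 peak had 2.86 in replicate 1 and 2.57 in replicate 2, but these peaks did not overlap. The replicate 1 peak that overlapped the one of replicate 2 had 2.34. Pcdhgc3 and Pcdhgc5 had no peak in either replicate, and Pcdhgc4 had one in replicate 2, over 7.52% of its window. Fold enrichment is the authors' own value, here that of the strongest peak on an exon. The sources used here do not say against what background it was computed.

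By fold enrichment the peaks on alpha exons were moderate. Pcdha8 was strongest, at 6.81 in replicate 1 and 12.1 in replicate 2, a mean of 9.45 ± 3.73 (SD, n = 2). The summit of that peak, its position of highest signal, lay before the exon start. Among Pcdha8 peaks with their summit inside the exon, the strongest had 5.72 in replicate 1 and 10.9 in replicate 2. These were separate peaks, with summits 1903 bp from the start in replicate 1 and 1093 bp in replicate 2. Pcdha6 had 5.72 and 9.57 and Pcdha7 had 4.83 and 7.81, means of 7.64 ± 2.72 and 6.32 ± 2.10. Replicate 2 was higher at 8 of the 10 alpha exons with a peak in both replicates, and at 70 of the 83 replicated peaks of the locus with a value in both. The gamma exon Pcdhgb4, at 8.03 in replicate 1 and 6.75 in replicate 2, lay in the same range. Its peak began 2324 bp into the gene and ran past the window, so 7.04% of the window was covered. The 20 replicated peaks on alpha exons had a median fold enrichment of 3.81, against 4.20 over the genome's replicated peaks. In replicate 1 the medians were equal, at 3.38, and in replicate 2 the alpha median of 4.92 was above the genome's 3.83, so no direction held across the lists. When only replicated peaks with a fold enrichment of 4 or more were kept, 5 of 14 alpha exons had one, Pcdha1 and Pcdha6 to Pcdha9.

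In the alpha cluster the exons were covered more than the sequence between them, and in the beta cluster less. Replicated peaks covered 29.0% of alpha exons and 10.1% of the sequence between them. The replicates gave 21.3% against 7.63% and 26.4% against 10.2%, so exon coverage was 2.79 and 2.59 times that of the sequence between them. Over the 2 replicates alpha exons averaged 23.9 ± 3.61% and the sequence between them 8.91 ± 1.82% (SD, n = 2 each), a gap wider than the spread between replicates. The sequence between alpha exons includes the long, sparsely covered stretches beside the C-type exons. Without Pcdhac1 and Pcdhac2, a choice made after seeing the data, alpha exons had 31.1% and the sequence between them 19.6%, a ratio of 1.59. Replicate 1 then gave 22.5% against 15.2% and replicate 2 gave 29.0% against 18.7%. In the wider mm9 regions, described further on, the order was the opposite, but over a set of exons that lacks Pcdha5 to Pcdha8. Beta genes were covered over 0% and the sequence between them over 4.90%, with 0.300% against 3.95% in replicate 1 and 1.25% against 5.02% in replicate 2. For comparison, replicated peaks covered 1.65% of the first 2.5 kb of protein-coding genes and 2.12% of protein-coding bodies of beta length. Both values lie below the 3.50% of the genome, so a lower share on genes is not particular to beta. Gamma exons had 0.320% and the sequence between them 5.14%. In replicate 1, however, the gamma values were 2.96% against 3.15%, within the spread between replicates, and in replicate 2 they were 2.26% against 5.73%.

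**Figure D3:**
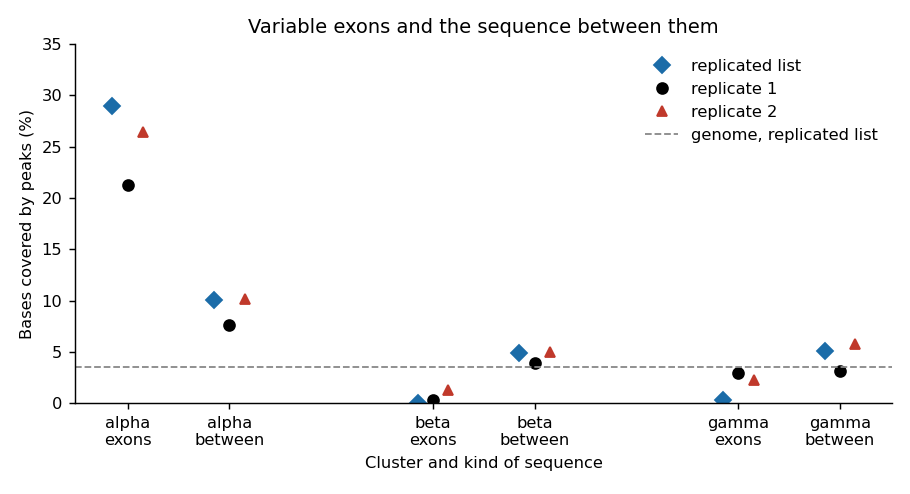
Percent of bases covered by H3K9me3 peaks (y axis) in variable exons and in the sequence between them, for each cluster (x axis). Diamonds are the replicated list, dots replicate 1, triangles replicate 2, and the dashed line is the genome in the replicated list (3.50%). Alpha exons lie between 21.3% and 29.0%, above the other 5 kinds of sequence in each list.

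Within alpha exons the peaks lay mostly inside the exon and less often at its start. The first 500 bp of the exon had a replicated peak in 2 of 14 alpha genes, Pcdha7 and Pcdha8, and the 500 bp before it in the same 2. The rest of the exon had one in 11 of 14. Coverage was 9.41% in the 500 bp before the start, 8.97% in the first 500 bp and 34.0% in the rest. Replicate 1 gave 10.6%, 5.50% and 25.3%, and replicate 2 gave 7.14%, 5.19% and 31.6%. Over the 14986 genes on other chromosomes these shares were nearly level, at 1.70%, 1.36% and 1.73%. Of those genes, 2.75% had a replicated peak in the 500 bp before the start, 2.10% in the first 500 bp and 4.72% in the longer rest. From 2.5 to 5 kb past the start, alpha coverage was back at 12.4%, with 8.45% in replicate 1 and 11.1% in replicate 2.

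**Figure D4:**
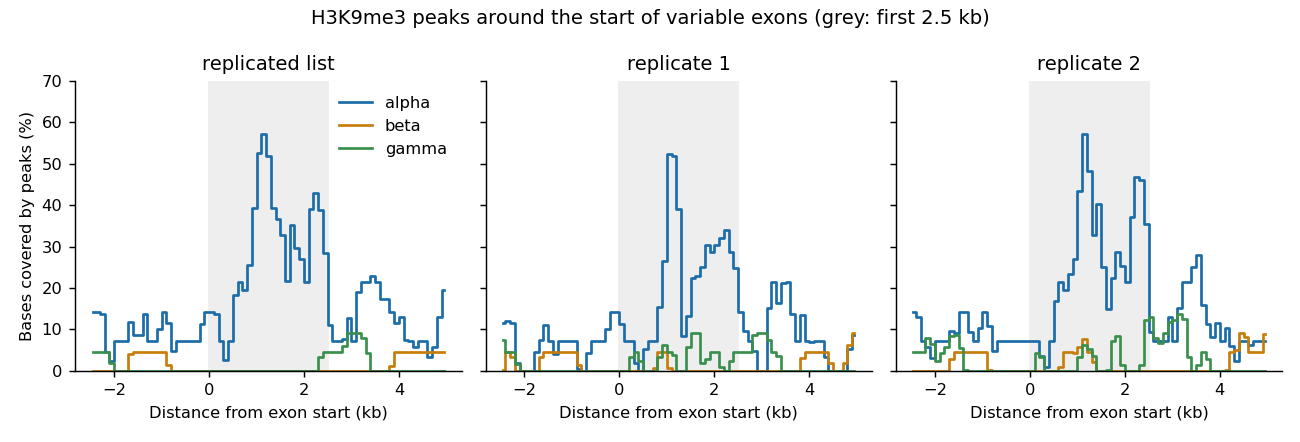
Percent of bases covered by H3K9me3 peaks (y axis) in steps of 100 bp against distance from the exon start (x axis, kb), averaged over the genes of each cluster, for the replicated list and each replicate. The grey band is the first 2.5 kb. Alpha reaches 57.1% at 1100 to 1200 bp in the replicated list and 52.4% at 1000 to 1100 bp in replicate 1, while beta and gamma reach at most 12.3% in the band, at gamma in replicate 2.

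The summits fell at similar distances in many alpha exons. In 8 of 14 exons a replicated summit lay 900 to 1300 bp from the start. They were Pcdha1 at 1103, Pcdha3 at 911, Pcdha6 at 1133, Pcdha7 at 1221, Pcdha8 at 1094, Pcdha9 at 1124, Pcdha10 at 1101 and Pcdha11 at 967 bp. These 8 genes also had such a summit in replicate 1. In replicate 2 there were 5, namely Pcdha4 and Pcdha6 to Pcdha9, and of the other 4 genes Pcdha1, Pcdha3 and Pcdha11 had their nearest summits at 764, 1423 and 883 bp, while Pcdha10 had a single peak, at 2269 bp. A summit 1700 to 2500 bp from the start was present in 7 of 14 alpha exons in the replicated list, 6 in replicate 1 and 8 in replicate 2. Both summits stood together on 6 exons in the replicated list, 6 in replicate 1 and 5 in replicate 2. Beta and gamma exons had no replicated summit in either range. From 900 to 1300 bp, however, 1 beta and 1 gamma exon had one in replicate 1, and 3 beta and 2 gamma exons in replicate 2. From 1700 to 2500 bp, 1 gamma exon had one in replicate 1 and 3 in replicate 2. These positions are thus not shown to be particular to alpha, and the same count over other genes is not given here. Both ranges were chosen after the summits were seen, so the counts describe these lists and test nothing.

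**Figure D5:**
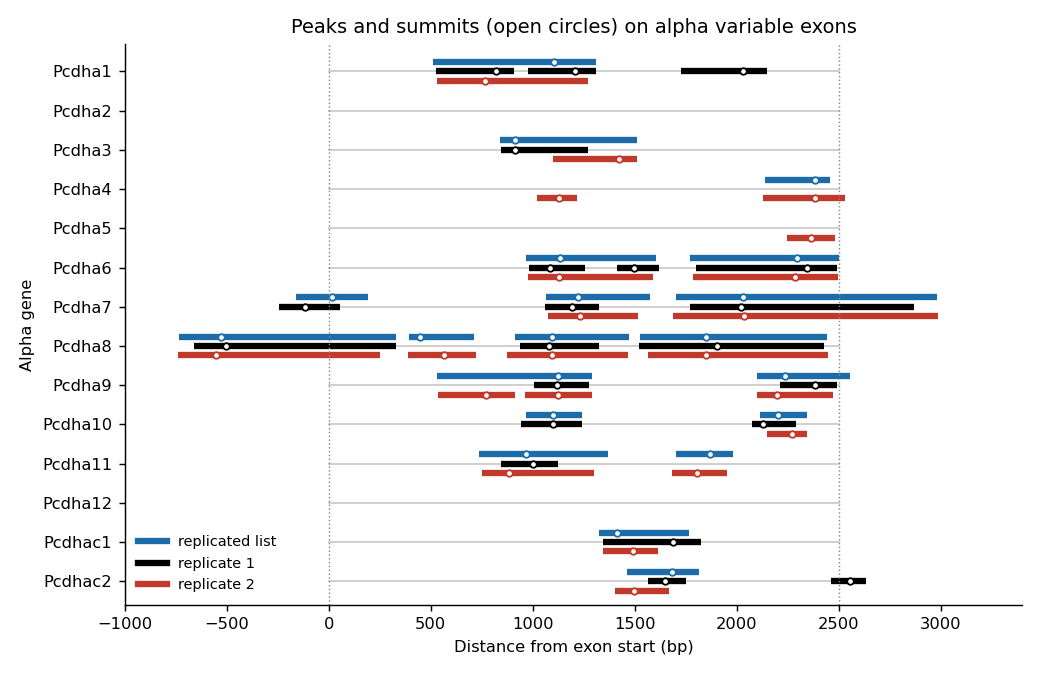
Peaks (bars) and their summits (open circles) on the 14 alpha variable exons (y axis) by distance from the exon start (x axis, bp), with dotted lines at the start and at 2.5 kb. For each gene the replicated list is on top, replicate 1 in the middle and replicate 2 below. Many exons have a summit near 1100 bp, and Pcdha2 and Pcdha12 have no peak.

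The letters of the exons themselves differed in how often they recur in the genome, which can limit where reads are placed. In mm9, 83.5% of the 31-base words starting in annotated alpha first exons occurred once in the genome, counting both strands, against 88.0% in beta and 95.5% in gamma first exons. Within alpha first exons the share was 66.5% in the first 500 bases, 90.6% from 500 to 1500 bases and 82.5% from 1500 to 2300 bases. The first 500 bases, with the fewest single-copy words here, were also covered less than the rest of the exon by mm10 peaks. That mm10 pattern is over 14 genes, while the words are from the 10 annotated mm9 exons, without Pcdha5 to Pcdha8. Shared mm9 regions covered these parts of the mm9 exons about equally, at 18.8%, 20.0% and 19.5%. Alpha first exons had 44.7 CpG per kb and a GC content of 53.5%, gamma 38.8 per kb and 53.3%, and beta 21.0 per kb and 46.0%. Over the mm9 locus, sequence covered in both replicates had 45.3% single-copy words and 43% found at least 10 times, against 84.5% and 10.3% in the rest. The sources used here state neither the read length nor how reads with several matches were treated, and the part of repeated sequence in the exon pattern was not tested.

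The sequence outside the exons, which makes up most of the locus, also held most of its marked bases. All variable exons together made up 16.3% of the 63400 bp under replicated peaks, and 76 of the 97 replicated peaks touched no exon. Along the alpha cluster coverage dropped step by step. It was 23.3% from Pcdha1 to the Pcdha12 exon, 7.62% from there to Pcdhac1, 3.12% from Pcdhac1 to the Pcdhac2 exon and 0% in the 42.7 kb that hold the shared constant end. Replicate 1 gave 17.6%, 5.98%, 1.73% and 0.756% over these 4 stretches, and replicate 2 gave 22.0%, 8.06%, 3.43% and 0.964%. The constant end of gamma had no peak in any of the 3 lists.

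By the replicated list's own value the strongest peak of the locus, at a fold enrichment of 17.4, lay between Pcdha7 and Pcdha8, from 36988618 to 36990328 in mm10. It had 10.1 in replicate 1 and 20.8 in replicate 2, and in neither replicate was it the highest. It lies on Gm36858, an annotated pseudogene that fills 14 kb between these exons. Gm36858 was covered over 42.6%, with 33.3% in replicate 1 and 43.1% in replicate 2. A second peak on it, from 36979507 to 36981661, had 10.7 and 15.6. The exons on either side of this pseudogene are Pcdha7 and Pcdha8, the most covered of the cluster.

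Between the clusters the mark came in patches. The 76.1 kb between the alpha and beta clusters held 19 replicated peaks over 14.5% of its bases, with 10.8% in replicate 1 and 14.4% in replicate 2. Its strongest, 22.5 kb before Pcdhb1, had a fold enrichment of 6.53 in replicate 1 and 22.1 in replicate 2. The 140 kb between beta and gamma were covered over 6.76%, with 4.58% and 6.33%. The stretch from Pcdhga12 to Pcdhgc3, between the main gamma array and its C-type exons, had 8.46%, but 2.75% in replicate 1 and 8.04% in replicate 2. From Pcdhgc3 to the Pcdhgc5 exon no replicated peak was found.

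Between beta genes the peaks formed small groups that stopped short of the exons. Of the 14 replicated peaks in the beta span, the strongest lay between Pcdhb14 and Pcdhb15, 10.4 kb past Pcdhb14, at a fold enrichment of 6.76 in replicate 1 and 11.2 in replicate 2. Another group lay 14.4 to 19.3 kb before Pcdhb9, with up to 5.46 and 8.47. The median distance from a beta gene to the nearest replicated peak was 10.2 kb, and for 20 of 22 genes it was over 1 kb. Pcdhb9 and Pcdhb10 were nearest, at 0.820 and 0.871 kb. Peaks called in 1 replicate alone lay on Pcdhb1 in replicate 1, and on Pcdhb4, Pcdhb14, Pcdhb16 and Pcdhb19 in replicate 2, over 3.97% to 9.24% of the gene. These 5 were named because the replicated list put every beta gene at 0%.

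Gamma exons that carried a peak in a replicate lay from Pcdhga5 onward in the gamma array. Pcdhga5 was covered over 12.5% in replicate 1 and 12.6% in replicate 2, Pcdhgb6 over 7.0% and 8.56%, and Pcdhgb7 over 10.3% and 3.00%. On each of these 3 exons the peaks of the 2 replicates did not overlap. The replicated list had no peak on these exons, and its peak next to Pcdhga5 lay 0.367 kb beyond the window. Pcdhga7 had the largest value of any gamma exon, 20.2%, in replicate 1 and none in replicate 2. The first 6 genes of the array, Pcdhga1, Pcdhga2, Pcdhga3, Pcdhgb1, Pcdhga4 and Pcdhgb2, had no peak on the exon in either replicate.

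The replicates shared alpha peaks more often than gamma peaks. In the alpha span replicate 1 had 51 peaks, of which 82.4% shared at least 1 bp with replicate 2, and replicate 2 had 53, of which 73.6% shared a base with replicate 1. In the gamma span these shares were 46.2% of 13 and 31.6% of 19, and in the beta span 80.0% of 20 and 56.0% of 25. On chromosome 18 they were 79.0% and 51.7%. Gamma had the fewest peaks of the 3 spans and the lowest shares in both directions.

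The wide regions of the mm9 lists gave a different count for alpha exons. The mm9 annotation (GENCODE M1) lists 10 separate alpha first exons under the entries Pcdha11 and Pcdha3. It lists 23 for the 22 beta genes and 9 for gamma under the entry Pcdhgc5, so the exons are not the same set as in mm10. No alpha first exon of that set lies between 37114804 and 37157534. By order and spacing of the exons, those absent are Pcdha5 to Pcdha8, among them the most covered in mm10. A region shared by both replicates touched 2 of the 10 alpha first exons, or 20.0%, against 1.57% of all protein-coding first exons and 4.02% of protein-coding exons of 2 to 4 kb. It touched 0 of 23 beta and 0 of 9 gamma first exons. The marked ones ran from 37089939 to 37092326, covered over 92.1% at 3.05 in replicate 1 and 3.04 in replicate 2, and from 37157534 to 37160014, covered over 100% at 6.50 and 8.98. Replicate 2 alone touched 4 of 10, the exon of the Pcdha3 entry among them, and replicate 1 alone touched 2, against 2.26% and 1.79% of all protein-coding first exons. Alpha was again the most covered span, at 26.6%, with 8.89% for beta and 2.26% for gamma. The mm9 lists cover 222.0 Mb in replicate 1 and 256.1 Mb in replicate 2, against 69.7 and 100.4 Mb in mm10. The gamma span, set by other exons, was nevertheless covered less than in mm10, at 2.79% and 3.32%. No share of the genome is given for mm9. Within the alpha span, however, the annotated exons did not stand out. Shared regions covered 19.3% of the annotated alpha first exons and 27.6% of the sequence between them, the opposite order to the narrower mm10 peaks. Pcdha5 to Pcdha8 count as sequence between exons here, so the 2 orders compare unlike sets. Coverage by shared regions was also nearly level along the annotated alpha first exons. It was 18.8% of bases 0 to 500, 20.0% of bases 500 to 1500 and 19.5% of bases 1500 to 2300. Shared regions covered 0% of beta first exons against 12.7% of the sequence between them, and 0% of gamma first exons against 2.75%.

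Over whole gene bodies the members of a cluster cannot be told apart, since alpha and gamma genes contain one another. Coverage of the body ran from 0.805% at Pcdhac2 to 11.1% at Pcdha1, Pcdha5 and Pcdha6 for alpha, from 0% to 4.25% for gamma, and was 0% for each beta gene. Of all protein-coding gene bodies, 30.8% had a replicated peak and 10.5% were covered over at least 5%. RefSeq also lists 3 long genes, Gm37013, Gm38666 and Gm38667, that run from alpha exons to the gamma end and carry alpha names as synonyms. They are no members by symbol, and were covered over 6.59% to 6.81%.

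Protocadherins outside the clusters are single genes on several chromosomes. Of 12 such genes 4 had a replicated peak in the body, near the background of 30.8%, 0 were covered over at least 5%, against 10.5%, and the highest coverage was 2.37%, at Pcdh15, a gene of hair cells of the inner ear. None of the 9 with a known strand had a replicated peak in the first 2.5 kb, where the background is 5.28%, and Pcdh7 had one in replicate 2. The neighbours Pcdh1 and Pcdh12, also on chromosome 18, had no peak in any list.

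Genes known to control the clusters or to act with their proteins were looked up as a comparison. Of 20 regulators 8 had a replicated peak in the body, against the background of 30.8%, and 0 were covered over at least 5%, against 10.5%. Setdb1, which encodes the enzyme that places H3K9me3 in much of silent chromatin, its corepressor Trim28 and the insulator protein gene Ctcf had none in any list. Smchd1, which encodes a chromatin protein known to silence the clusters, had 3.61%, with 3.06% in replicate 1 and 3.21% in replicate 2. Atf7ip, which encodes a cofactor of SETDB1, was the 1 of 16 regulators of known strand with a replicated peak in the first 2.5 kb, over 59.0% of it, with 42.8% in replicate 1 and 59.4% in replicate 2. Of 10 partners in signalling and adhesion 5 had a peak, against 30.8%, and 1 was covered over at least 5%, against 10.5%. That one was Ptk2b, a kinase gene, at 6.78%, with 5.82% and 8.02%.

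The Ugt1a genes on chromosome 1, drug-conjugating enzymes, also join variable first exons to shared ones. All 9 bodies were covered over at least 5%, against 10.5% of all protein-coding genes, with a median of 9.10%, but these bodies contain one another as well. Of the 8 with a known strand 1 had a replicated peak in the first 2.5 kb, against 5.28%, and this was Ugt1a10 at 54.1%, with 34.0% in replicate 1 and 56.7% in replicate 2. For alpha the count was 11 of 14. The difference between the 2 arrays was not tested.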

How the data were processed

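H3K9me3 ChIP-seq peak lists of 2 replicates were used, as deposited by the authors. Per the deposited file lists, the mm10 lists are of narrowPeak type with a fold enrichment (a linear ratio), −log10 p and −log10 q per peak, and the replicated list was made from the pooled and both replicates' lists. The deposited mm9 lists are of broadPeak type with a fold ratio and linear p-value and q-value columns. Peak caller and aligner: not given in the sources used here. Fold enrichments served to describe, rank or filter peaks.

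Overlapping peaks were joined and covered bases were counted in Python 3.11.15 with numpy 2.4.6 and pandas 2.3.3, checked on simulated intervals. An exon counted when a peak overlapped it by at least 1 bp. The variable exon in mm10 was 2.5 kb from the variable end, or the gene body for beta. mm9 regions covered in both replicates were compared with GENCODE M1 exons. No coordinates were converted between builds. Strand for the background came from RefSeq promoters (GRCm38.p6), on chromosomes other than 18.

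Genes named were the C-type genes, the 5 most and up to 3 least covered exons per cluster, the strongest exons, neighbours, Setdb1, Smchd1, Trim28, Ctcf and listed genes covered over at least 5%. The members and lists were chosen with earlier results of these data known. No test was made, since there is 1 group of 2 replicates. Alternatives were other lists, thresholds, windows and overlaps. No sequence of the locus is printed.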

Additional observations from a re-analysis of the deposited data

How the results depend on the processing

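No paired analysis was possible because there is 1 group and no second condition. Alpha kept the highest count and share of exons with a peak in each setting run, mm9 included. With the pooled list alpha, beta and gamma exons were covered over 32.8%, 1.36% and 4.29%, with peaks on 3 beta and 9 gamma exons, 5.80% between beta genes, and spans at 4.49% for beta and 5.33% for gamma. At a fold enrichment of at least 4, alpha exons with a peak fell to 5 and their coverage to 18.4%, and the alpha and gamma spans to 10.1% and 2.46%. With peaks within 1 kb joined, alpha exons reached 39.0%, the sequence between exons 12.7% in alpha and 6.34% in beta, and the spans 17.0% and 4.47%. With windows of 1 kb, alpha exons had 16.9% and the sequence between 12.8% (beta 3.81%), and gamma had 0 exons with a peak. With windows of 5 kb, alpha, beta and gamma exons had 20.7%, 1.04% and 1.39%, with peaks on 1 beta and 2 gamma exons, and 7.24% between gamma exons. With at least 10% of the exon covered gamma had 0, and with at least 50% alpha had 3 and gamma 0. Without Pcdha6, Pcdha7 and Pcdha8, an alternative chosen after seeing the data, alpha exons had 18.7%. Without the C-type genes, likewise chosen later, the sequence between alpha exons had 19.6%. Using the first 2.5 kb of beta genes, also chosen later, moved nothing beyond the spread.

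In mm9, shared regions covered 26.6%, 8.89% and 2.26% of the alpha, beta and gamma spans, and touched 2 alpha and 0 gamma first exons. There the annotated alpha first exons, which lack Pcdha5 to Pcdha8, were covered over 19.3%, less than the 27.6% of the sequence between them. The third mm9 list touched 4 and 1, and 1 alpha exon was left when each replicate's regions needed a fold enrichment of 4. These causes were not tested, apart from what each setting removes or adds by construction.

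Without 1 replicate at a time, span coverage was 9.85% to 12.8% for alpha, 2.87% to 3.91% for beta and 3.08% to 4.54% for gamma. Exon coverage was 21.3% to 26.4%, 0.300% to 1.25% and 2.26% to 2.96%, and sequence between exons 7.63% to 10.2%, 3.95% to 5.02% and 3.15% to 5.73%. Exons with a peak numbered 10 to 12, 1 to 4 and 6 to 7, and mm9 alpha first exons 2 to 4. Over the locus 78.5% of replicate 1 peaks and 60.7% of replicate 2 peaks were overlapped by the other list. Asking for 50% of the peak gave 49.3% for replicate 2, and a fold enrichment of at least 4 in each list gave 91.9% and 42.5%. Of 132 alternative values, 75 stayed close to the reported one, that is, coverage within 1 SD of the replicates, counts of exons within 1.5 times, and the shares of peaks overlapped within the binomial 95% interval of the number of peaks. The 75 include each value at −log10 q of at least 2, a filter that changed none of them. Coverage without 1 replicate was judged against the SD of those same 2 replicates, so the tally is no measure of stability. Depth is unknown, so absence of a peak does not show absence of the mark.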

Other observations

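The few other genes in and beside the locus were mostly free of H3K9me3 peaks. Between the beta and gamma clusters, Slc25a2, a mitochondrial carrier gene, Taf7, a subunit gene of the general transcription factor TFIID, and the pseudogene Gm8242 were covered over 0% in the replicated list and in each replicate. So were Diaph1, a regulator of actin that follows the gamma cluster, and Hdac3, a histone deacetylase gene beyond it. The 100 kb after the gamma cluster held no peak in any of the 3 lists, while the 100 kb before Pcdha1 were covered over 61.4%, with 47.7% in replicate 1 and 62.9% in replicate 2. The gene nearest to Pcdha1 on that side, the transcribed pseudogene Gm6756, was covered over 42.9%, with 14.7% and 39.9%. Of the pseudogenes between exons, Gm18150, Gm19035, Gm18529, Gm20162 and Gm24401 had 0% in each list, in contrast to 42.6% at Gm36858. These names, other than the immediate neighbours, were chosen after their values were seen.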
